A study of Rattus norvegicus with 6 samples.

Results

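Lymphocyte and IgA transport markers of the rat jejunum were followed in 9 genes: the T cell genes Cd3e, Cd4, Cd8a and Cd2, the cytotoxic granule genes Gzmb and Prf1, the B cell gene Cd79b, the IgA carrier Pigr of the epithelium, and Ptprc, the common antigen of leukocytes. They were chosen by name, and all array probes outside the control spots whose RefSeq accession belonged to them were taken. All 9 genes were matched, by 11 probes in all, out of 13837 genes named in this way on the array. Of the 9, 8 passed the filter on dim probes, as did 11489 of all named genes. Cd4 did not pass.

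The small intestine holds T cells between the epithelial cells, many of them CD8-positive and armed with granules of perforin and granzymes, and further T cells with helper function in the lamina propria below. B cells of the lamina propria and of the lymphoid follicles mature into plasma cells that release polymeric IgA. The polymeric Ig receptor, made by the epithelial cells of the crypts and villi, binds this IgA on the side of the tissue, carries it across the cell and releases it into the lumen.

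The groups were male SD rats, 6 weeks old and of 200 ± 20 g. Animals labelled S3d spent 2 h of each of 3 days at 35°C under vibration of 0.1 g, and animals labelled control stayed at 25°C and were not shaken. RNA of the jejunum was measured on 1-colour Agilent arrays, 3 per group. Each array carried RNA pooled from 3 rats, and the labels give 10 rats per group. The spread between arrays is therefore a spread between pools and says nothing of single animals, and the p-values measure only the spread between these 3 samples of each group.

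Levels are the log2 of a probe's processed signal less the 75th percentile of its array, so that a level of 0 is the signal that 75% of the probes do not reach, and the levels of different probes cannot be set against each other. Groups were compared with limma, and genes with an adjusted p under 0.05 were called (Benjamini-Hochberg over all 31367 probes tested). An exact permutation test of 3 arrays against 3 cannot go below p = 0.1. The scaling matters here, since the 75th percentile of the signal ran from 414.8 to 430 in the control arrays and from 1457.7 to 1558.3 in the S3d arrays. Each group filled a slide of its own, scanned 450 days from the other, so that slide, scan and group cannot be told apart. Arrays correlated at 0.984 to 0.995 within a group and at 0.925 to 0.939 between the groups. No array stood apart within its group.

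The labels of the arrays go against each other. Each column of the normalized log2 table that the authors deposited matched the same-numbered scanner file that carries the opposite label (Spearman's rho 0.99999), and followed the scanner file of its own label less closely (rho 0.9415 to 0.9519). No sample was moved. Every sign below follows the scanner labels (S3d less control), and it opposes the direction of the deposited table for 7 of the 8 tested genes. The direction in which the study itself reports its stress genes is that of the table. The size of a difference and the separation of the arrays do not depend on this, whereas the direction does.

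By the scanner labels, 7 of the 8 tested genes were lower on the arrays labelled S3d (Cd3e, Cd8a, Gzmb, Prf1, Cd79b, Pigr and Ptprc) and 1, Cd2, was higher, whereas without scaling between arrays all but Ptprc were higher. Before scaling, these 7 lower genes lay between -0.80 and 1.55, below the median of 1.93 over all tested probes, and Cd2 lay above it at 2.26. Among all named genes tested, 37.4% were called lower and 36.1% were called higher. The arrays of the groups did not overlap for any of the 8 genes, which was also the case for 78.8% of the named genes, so that a separation of the groups is the usual state of a gene in these data. The median log2 fold change of the 8 was -0.59, against 0.00 over all named genes and 0.08 over all tested probes. All 8 were well above background on all 6 arrays. By its own labels, the deposited table had 6 of them higher in S3d, 0 lower and a median of 0.52. Of all tested probes, 70.1% were called in that table, 50.4% of these higher. In RNA of whole tissue, fewer cells of a type and less RNA per cell cannot be told apart.

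**Figure D1:**
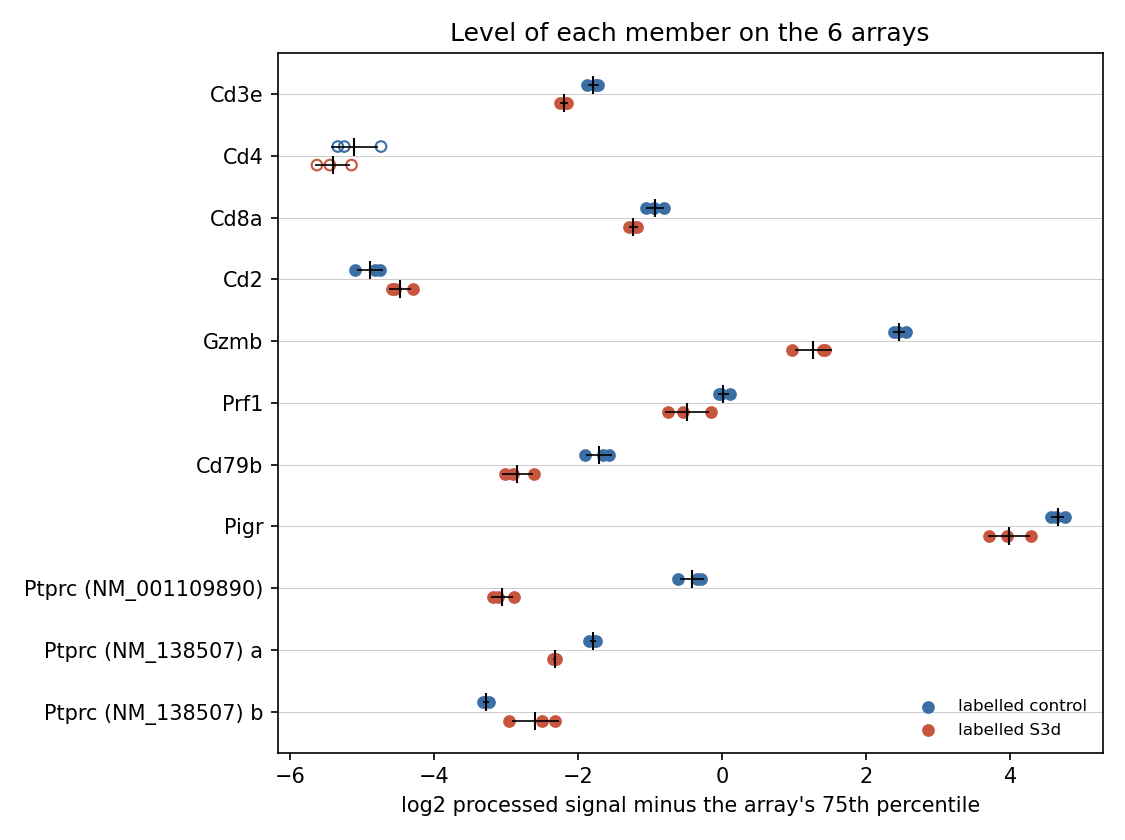
Level of each member probe (log2 of the processed signal less the array's 75th percentile) on the 3 arrays labelled control and the 3 labelled S3d, with the mean and SD of each group as a tick and bar. The groups are apart for every probe drawn filled, and the open points of Cd4, which was not tested, overlap.

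Ptprc encodes CD45, a membrane phosphatase found on all leukocytes, which switches on the Src kinases behind the antigen receptors and is spliced into isoforms that differ between lymphocyte states. It lies on chromosome 13 (52147717 to 52259810, GRCr8) and had 3 probes. The probe for NM_001109890, the brightest, read -0.30, -0.61 and -0.35 on the arrays labelled control, against -2.89, -3.19 and -3.11 on those labelled S3d. All 3 S3d values lay more than 2 log2 units below all 3 control values. The log2 fold change was -2.64 (SE 0.12, 95% interval -2.93 to -2.35, adjusted p = 1.8e-05), a 6.24-fold difference and the largest of the members. This was also the sole member whose signal was lower before any scaling, at 336, 280 and 337 against 197, 170 and 181, a log2 difference of -0.80 where the median of all tested probes was 1.93.

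The other probes of Ptprc, both for NM_138507, gave smaller differences, and they went opposite ways. The first lay at -1.85, -1.76 and -1.78 on the arrays labelled control, against -2.35, -2.31 and -2.33 on those labelled S3d, and its log2 fold change was -0.53 (SE 0.059, adjusted p = 0.00036). Its arrays were the closest together of all member probes. The second lay at -3.24, -3.32 and -3.29 against -2.96, -2.51 and -2.32, a log2 fold change of 0.69 (SE 0.17, adjusted p = 0.0098). Thus 1 gene was called lower on 2 probes and higher on 1, and the mean over its probes was -0.83. Of the 2626 named genes with more than 1 tested probe, 600 (22.8%) had probes called in opposite directions. The median range between the probes of a gene was 0.78, that of Ptprc was 3.33, and 47 genes had a range at least as wide. Which exons the probes lie in was not analysed here.

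The cytotoxic pair were lower together. Granzyme B, encoded by Gzmb on chromosome 15 (34459007 to 34462469), is a serine protease that cleaves caspases inside target cells, and perforin, encoded by Prf1 on chromosome 20 (29789040 to 29794550), forms the pore through which granzymes reach them. Gzmb read 2.38, 2.55 and 2.44 on the arrays labelled control, against 0.97, 1.43 and 1.40 on those labelled S3d. The lowest control array was nearly 1 log2 unit above the highest S3d array. This gave a log2 fold change of -1.19 (SE 0.14, 95% interval -1.53 to -0.85, adjusted p = 0.00045), or 2.28-fold. It stayed between -1.27 and -1.04 when any array was left out. Under normexp background correction it was -0.65 and was not called (adjusted p = 0.19). Without 8 spots of control array 3 that upset this correction, it was -0.98 (adjusted p = 0.00019).

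Prf1 moved less and with a wider spread. It read -0.04, -0.02 and 0.11 on the arrays labelled control, against -0.75, -0.55 and -0.15 on those labelled S3d. The S3d array 3 came close to the control arrays, whose SD was 0.08 (n = 3) against 0.31 (n = 3) for the S3d arrays. The log2 fold change was -0.50 (SE 0.16, 95% interval -0.89 to -0.11, adjusted p = 0.028), or 1.42-fold. Leaving out control array 1, 2 or 3 or S3d array 1 or 2 ended the call, with log2 fold changes of -0.53, -0.52, -0.46, -0.37 and -0.47 and adjusted p up to 0.081.

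As these cytotoxic genes were lower together, the bases before their gene starts are shown. The sequences are the 250 bases upstream in RefSeq (GRCr8), written 5′ to 3′ on the strand of the gene, for Gzmb on the minus strand at chr15:34462470-34462719 and for Prf1 on the plus strand at chr20:29788790-29789039. Capitals mark matches, on either strand, to the motifs searched.
Gzmb: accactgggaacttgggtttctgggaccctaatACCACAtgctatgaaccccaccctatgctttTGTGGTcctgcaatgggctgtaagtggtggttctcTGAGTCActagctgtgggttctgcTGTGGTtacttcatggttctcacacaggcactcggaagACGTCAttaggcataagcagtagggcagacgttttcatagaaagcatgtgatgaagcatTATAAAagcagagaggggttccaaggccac
Prf1: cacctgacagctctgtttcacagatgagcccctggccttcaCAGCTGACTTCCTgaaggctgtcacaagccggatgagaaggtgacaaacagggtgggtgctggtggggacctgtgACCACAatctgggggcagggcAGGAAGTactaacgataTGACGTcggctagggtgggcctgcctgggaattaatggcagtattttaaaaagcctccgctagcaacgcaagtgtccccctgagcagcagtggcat

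The motifs searched were the octamer ATGCAAAT, a Runx site TGTGGT, an E-box CAGCTG, an ETS core AGGAAGT, an AP-1 site TGANTCA, a CRE core TGACGT, an E-box CACGTG, an IRF element, a TATA box TATAAA and a GATA site AGATAA. The Gzmb sequence held the Runx letters 3 times, starting at -217, -186 and -127 from the gene start, an AP-1 match at -151, a CRE match at -89 and a TATA match at -30. The Prf1 sequence held a Runx match at -134, an E-box match at -209 directly beside an ETS match at -203, a further ETS match at -113 and a CRE match at -96. Both thus held Runx and CRE letters, the latter within 100 bases of the start. Other members searched held them too: Cd2, which went the other way, had Runx letters at -20, and Cd3e had CRE letters at -53. Such letters are common: of 33469 rat promoter windows of 300 bases, 17.3% held the Runx letters, 15.1% CAGCTG, 14.2% TATAAA, 11.6% AGATAA, 8.41% AGGAAGT, 7.94% TGACGT, 7.33% TGANTCA, 6.42% CACGTG, 3.92% the IRF element and 1.78% the octamer. A match describes the letters and is not a bound site.

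Other genes of cytotoxic lymphocytes were measured as a list of 18, of which 17 were matched and tested. Of these, 7 were lower, 3 were higher and 7 were not called, and the median log2 fold change was -0.19 (0.28 in the deposited table). Gzma, a tryptase that shares the granules with granzyme B, differed by -1.07 (adjusted p = 0.001). Gzmf, another granzyme, had the largest fall of the list (-1.53, adjusted p = 0.00038). Ccl5, a chemokine of activated T cells, differed by -0.80 (adjusted p = 0.00017). In the deposited table Gzma stood at 0.76, Gzmf at 1.71 and Ccl5 at 0.55. Of the 3 called higher, Ncr1, an activating receptor of natural killer cells, was well above background on 1 of the 3 arrays labelled control and on all 3 labelled S3d, so that it passed the filter through the latter alone and no size is given for it. The other 2, named after their values were seen, were above background on all 6 arrays. Serpinb9, an inhibitor of granzyme B, rose by 1.56 (adjusted p = 0.00023) and Klrk1, the receptor NKG2D, by 0.51.

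Among the T cell members, Cd3e encodes the epsilon chain of CD3, the signalling part of the T cell receptor, on chromosome 8 (54200617 to 54211770). It read -1.77, -1.88 and -1.72 on the arrays labelled control, against -2.26, -2.16 and -2.17 on those labelled S3d. The groups were well apart and each was narrow. Cd3e thus differed by a log2 fold change of -0.41 (SE 0.072, 95% interval -0.58 to -0.23, adjusted p = 0.0027), or 1.33-fold. Its partner chains did not all follow. Cd3d (-0.80, adjusted p = 0.0007) and Cd3g (-0.54, adjusted p = 0.034) were lower, and Cd247, which encodes the zeta chain, was higher by 0.43 (adjusted p = 0.02). The medians of tested probes of like signal were -0.16 for Cd3d, -0.49 for Cd3g and 0.31 for Cd247, so that little of the difference was left for Cd3g and Cd247 beside such probes. The arrays of Cd3g also overlapped between the groups. In the deposited table Cd3d was at 0.62 and called (adjusted p = 0.0022), whereas Cd3g (0.19, adjusted p = 0.38) and Cd247 (-0.05, adjusted p = 0.74) were not.

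Cd8a encodes the alpha chain of CD8, the co-receptor of cytotoxic T cells, and it also forms the alpha homodimer of intraepithelial lymphocytes. It lies on chromosome 4 (104924116 to 104928353). Its levels were -0.95, -1.06 and -0.81 on the arrays labelled control, against -1.30, -1.22 and -1.18 on those labelled S3d. The groups were separate by little more than 0.1 log2 units. The log2 fold change was -0.29 (SE 0.086, 95% interval -0.50 to -0.08, adjusted p = 0.022), the smallest of the members called. Leaving out control array 1 (-0.30), control array 3 (-0.23), S3d array 1 (-0.26) or S3d array 2 (-0.30) ended the call. Its partner Cd8b, the beta chain that marks thymus-derived CD8 T cells, differed by far more, with -1.45 (SE 0.1, adjusted p = 5.8e-05). The difference between the chains was not tested.

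Cd4, the co-receptor of helper T cells on chromosome 4 (159355147 to 159381636), could not be compared. It was well above background on 2 of the 3 arrays of each group, and its levels of -5.25, -4.74 and -5.34 on the arrays labelled control overlapped those of -5.63, -5.45 and -5.15 on those labelled S3d. Fitted without the filter, its log2 fold change was -0.30 (adjusted p = 0.26). Its signal lay between 10.6 and 16 on the arrays labelled control and between 29.4 and 44 on those labelled S3d.

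Cd2, an adhesion receptor of T and natural killer cells on chromosome 2 (191399510 to 191412659), was the member that went the other way. It read -4.83, -5.10 and -4.75 on the arrays labelled control, against -4.59, -4.30 and -4.54 on those labelled S3d, and its log2 fold change was 0.42 (SE 0.13, 95% interval 0.11 to 0.73, adjusted p = 0.024), or 1.34-fold. Its probe was the dimmest of those tested among the members, and the median of tested probes of like signal was 0.40, almost the same. The sign depended on the processing. It was -0.07 under quantile normalization (adjusted p = 0.64) and -0.76 under normexp background correction without 8 spots of 1 array (adjusted p = 8e-06), and the call ended without control array 2 (0.31) or S3d array 2 (0.33).

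The T cell list of 24 other genes had 21 matched and 20 tested, with 8 higher, 8 lower and 4 not called and a median of -0.03 (0.09 in the deposited table). The median moved with the processing, to -0.24 under median centring, -0.95 under normexp and -0.59 under normexp without the 8 spots, where 18 of the 20 were called. Trat1, an adaptor of the T cell receptor, was well above background on no array labelled control and on all 3 labelled S3d. It thus passed the filter through the latter alone, and no size is given for it. Cd5 (1.68, adjusted p = 3.3e-05) and Ctla4 (1.64, adjusted p = 8.5e-05), inhibitory receptors of T cells that were named after their values were seen, rose and were above background on all 6 arrays. The largest fall was that of Cd8b, which stood at 1.53 in the deposited table. The mean level over the list lay between -2.22 and -2.13 on the arrays labelled control and between -2.05 and -1.92 on those labelled S3d. Trat1, Ccr7 and Tbx21 passed the filter through the arrays labelled S3d alone, and they are part of this mean and of the 8 called higher. Of the 20 genes tested, 17 were above background on all 6 arrays. When only such probes were tested, the median was -0.30, with 14 called.

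Cd79b encodes the beta chain of the signalling pair of the B cell receptor, on chromosome 10 (91739134 to 91742312). It read -1.57, -1.91 and -1.66 on the arrays labelled control, against -2.61, -2.91 and -3.02 on those labelled S3d. All S3d arrays lay at least 0.7 log2 units below all control arrays. The log2 fold change was -1.13 (SE 0.14, 95% interval -1.48 to -0.78, adjusted p = 0.00062), or 2.19-fold. It stayed between -1.25 and -1.05 when any array was left out. Under normexp it was -1.62 and was not called (adjusted p = 0.073), and without the 8 spots it was -1.23 (adjusted p = 1.4e-05). Its partner chain Cd79a was not matched by accession.

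Of the 22 other B and plasma cell genes, 15 were matched and 13 tested, with 4 higher, 5 lower and 4 not called. The median was 0.08 (0.16 in the deposited table), and it changed sign under quantile normalization (-0.15), median centring (-0.13), normexp (-0.75), normexp without the 8 spots (-0.60) and without S3d array 1 (-0.13). Prdm1, which encodes the factor Blimp-1 that drives plasma cell formation, had the largest fall (-1.84, adjusted p = 3.9e-05). Pou2af1, a B cell co-activator, differed by -0.79 (adjusted p = 0.0031). Sdc1, the plasma cell marker CD138 that epithelial cells also express, was higher by 0.30 (adjusted p = 0.026), and it was the brightest gene of the list. Cd72, a co-receptor of B cells, had the largest rise (1.5, adjusted p = 3e-04). In the deposited table Prdm1 stood at 1.81, Pou2af1 at 0.66, Sdc1 at -0.78 and Cd72 at -1.06.

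Pigr, the polymeric Ig receptor on chromosome 13 (44851001 to 44879143), had the brightest probe of the members. It read 4.64, 4.57 and 4.76 on the arrays labelled control, against 4.29, 3.96 and 3.71 on those labelled S3d. The arrays labelled S3d were spread over more than 0.5 log2 units and those labelled control over less than 0.2. Its log2 fold change was -0.67 (SE 0.16, 95% interval -1.05 to -0.29, adjusted p = 0.0085), or 1.59-fold. Most bright probes were lower as well: the median over the tested probes of like signal was -0.49, which lay within the interval of Pigr. Under quantile normalization its log2 fold change was -0.29 and was not called (adjusted p = 0.14).

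**Figure D2:**
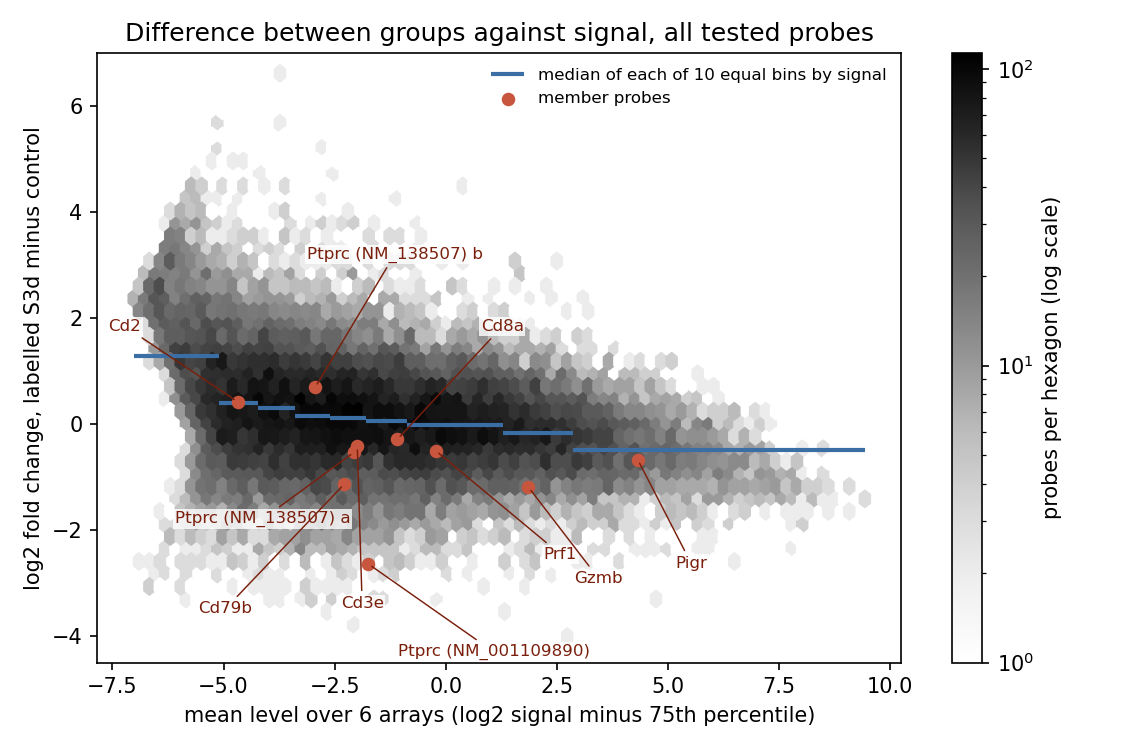
Log2 fold change against the mean level over the 6 arrays for the tested probes, shaded by the number of probes per hexagon, with the median of each of 10 equal bins of probes by signal (lines) and the tested member probes (points). The medians fall from 1.28 in the dimmest bin to -0.49 in the brightest, Cd2 and Pigr lie near the line of their bin, Gzmb, Cd79b and the lowest Ptprc probe lie well below theirs, and 15 probes lie outside the vertical axis.

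The fold changes of all probes moved with their signal, and this touches each member. With the tested probes in 10 equal bins by signal, 66.1% of the dimmest bin were called higher and 12.3% lower, and in the brightest bin 15.9% were called higher and 65% lower. Against the median of its own bin, Cd3e (-0.41) stood beside 0.11, Cd8a (-0.29) beside 0.06, Prf1 (-0.50) beside -0.02, Gzmb (-1.19) beside -0.16, Cd79b (-1.13) beside 0.11 and the brightest Ptprc probe (-2.64) beside 0.06. For these 6 genes the difference kept its sign beside probes of like signal. Gzmb, Cd79b and this Ptprc probe lay below the lower quartiles of their bins, -0.65, -0.49 and -0.50. Cd3e, Cd8a and Prf1 lay above theirs, -0.49, -0.50 and -0.58, and so between the quartiles of such probes. For Cd2 and Pigr little of the difference was left. The part of the signal trend in these differences was not tested.

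**Figure D3:**
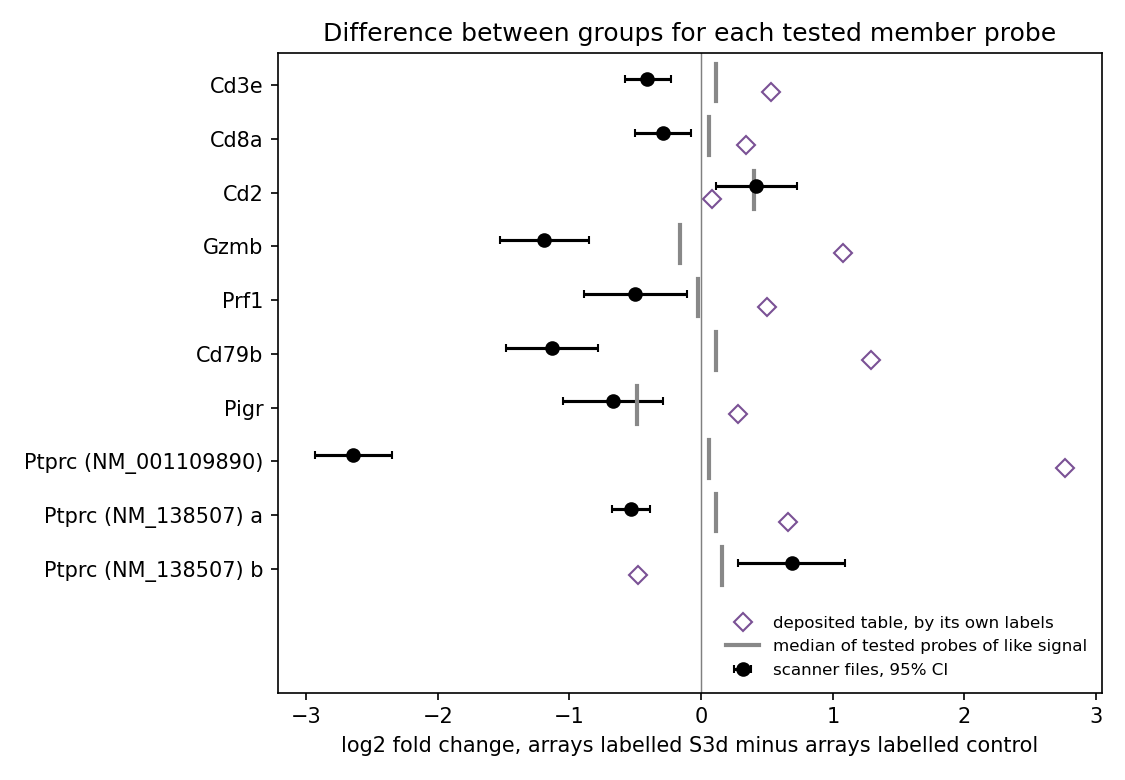
Log2 fold change of each tested member probe from the scanner files with its 95% interval (black), by the labels of the deposited table (open diamonds), and the median of tested probes of like signal (grey bars). The black points of Ptprc NM_001109890, Gzmb and Cd79b lie farthest below 0, and the diamonds of these probes mirror them.

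Other genes act in the making and passage of IgA. Of this list of 22, 19 were matched and 17 tested, with 6 lower, 2 higher and 9 not called and a median of -0.04 (0.00 in the deposited table). Ccl25, the epithelial chemokine that draws lymphocytes into the small intestine, had the largest fall (-1.98, SE 0.11, adjusted p = 3e-05). In the deposited table Ccl25 stood at 1.71. Rab17, a small GTPase of transcytosis in epithelial cells, differed by -0.96 (adjusted p = 0.00017), while Rab11a, a GTPase of recycling endosomes and the brightest gene of the list, was at 0.10 (adjusted p = 0.24). Tgfb1, the cytokine that turns B cells to IgA, had the largest rise among those called (0.37, adjusted p = 0.0081). In the deposited table it stood at -0.28, and there Rab11a was called at -0.53 (adjusted p = 0.00096), so this rank did not hold. Tnfsf13, the cytokine APRIL that acts on B cells and plasma cells, was named after its value was seen. It was at 1.02 and was not called (adjusted p = 0.068). Jchain, which joins IgA into dimers, was not matched by accession.

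The general leukocyte list, which shares no gene with the members, had 16 genes tested of 17 matched, with 8 lower, 5 higher and 3 not called and a median of -0.36 (0.25 in the deposited table, with 9 higher and 6 lower). Csk, a kinase of most cell types that opposes CD45 on the Src kinases, differed by -1.59 (adjusted p = 1.5e-05), and Ptpn6, the phosphatase SHP-1, by -0.72 (adjusted p = 0.00019). Itgb2, the beta chain of the leukocyte integrins, rose by 1.71 (adjusted p = 1.2e-05). Itgb2 and the brightest Ptprc probe, both of leukocytes, thus went opposite ways.

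**Figure D4:**
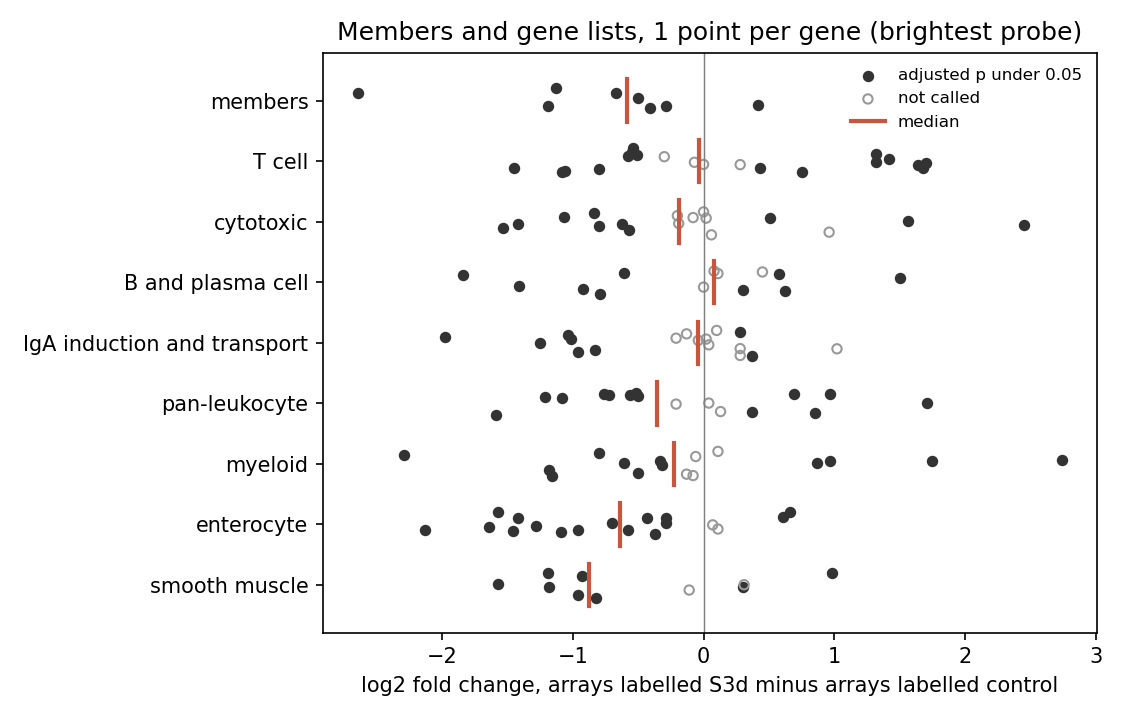
Log2 fold change of every tested gene, 1 point per gene on its brightest probe, for the members and 8 gene lists, filled where the adjusted p was under 0.05, with the median of each list. The lists spread to both sides of 0, and the enterocyte and smooth muscle lists have the lowest medians, -0.64 and -0.87 (0.16 and -0.32 under quantile normalization).

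Markers of the other cells of the jejunum moved with the groups too, as did most named genes (37.4% called lower and 36.1% higher). Most of the enterocyte genes and several of the smooth muscle genes lay in the brightest bin by signal. In that bin 65% of the tested probes were called lower, at a median of -0.49. All 18 enterocyte genes were well above background on all 6 arrays, as the tissue label requires, and 14 were lower and 2 higher, with a median of -0.64 and a mean level of 6.99 to 7.09 on the arrays labelled control, against 6.32 to 6.38 on those labelled S3d. Fabp1, a fatty acid carrier of enterocytes, differed by -1.64, Apoa4, an apolipoprotein, by -1.42 and Tff3, a peptide of goblet cells, by -2.13, while Lct, which encodes lactase, rose by 0.66. In the deposited table these stood at 0.24, -0.05, 0.88 and -0.77. Of the 10 smooth muscle genes tested, 6 were lower and 2 higher, with a median of -0.87 and a mean level of 3.34 to 3.52 against 2.84 to 2.98. Tpm2, a tropomyosin, differed by -0.82 and Mylk, the myosin light chain kinase, by -1.57, Myh11, the smooth muscle myosin heavy chain, rose by 0.98, and Actg2, an actin, was at 0.31 and was not called (adjusted p = 0.052). Of the 16 myeloid genes tested, 8 were lower and 4 higher, with a median of -0.22 and a mean level of 0.54 to 0.72 against 0.51 to 0.61. C1qb, a complement gene of macrophages, differed by -1.16 and Lyz2, a lysozyme, was at -0.08 (adjusted p = 0.27). S100a9 differed by -2.29. Its partner S100a8 was well above background on none of the arrays labelled control. S100a8 and Csf3r, both among the 4 higher, passed the filter through the arrays labelled S3d alone, and no size is given for them. The enterocyte median changed sign under quantile normalization (0.16), where that of smooth muscle was -0.32, and without scaling they were 1.20 and 0.97. In the deposited table the medians of these 3 lists were -0.22, 0.32 and 0.18. Scaled to the 75th percentile, the enterocyte and smooth muscle medians lay below the -0.59 of the members, and under quantile normalization they lay above the -0.51 of the members. The part of these cell types in the differences of the lymphocyte genes was not tested.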

How the data were processed

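Jejunal RNA of 6 pools, 3 per group, was measured on 1-colour Agilent arrays. The authors deposited the scanner output, made with Agilent Feature Extraction 10.7.3.1 per the file headers (10.7 in the submitters' processing notes), whose processed signal intensity is corrected for background and not normalized between arrays. The authors also deposited a table of log2 values. Its sorted columns differed by at most 0.0025, as quantile normalization leaves them, and the program is not given in the sources used here.

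Spots that were controls or flagged as outliers were dropped, repeated spots were averaged, and the log2 processed signal was taken minus the 75th percentile of its array. Of 41012 probes, 31367 stood well above background throughout the 3 arrays of either group and were tested (lmFit and eBayes of limma 3.58.1, R 4.3.3, no block). Probes were named by RefSeq accession through the GRCr8 gene table (17512 of 20904 accession probes), and the brightest probe stands for a gene. Normexp used the median signal, since no mean was given. The number of arrays limits the precision.

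On simulated data for 31137 probes, 200 of them changed by 1 on the log2 scale. Of these 63.5% were recovered, with 100% of the right sign and 5 false calls. The simulation held no slide effect and no trend with signal. In the real data 74% of the tested probes were called, so these rates do not carry over to them. The alternatives were other scalings, background corrections, filters and thresholds, the deposited table, a replicate block, an intensity trend, the methods' one-way test, other probes, and each array left out. No slide block could be fitted, as each slide held 1 group. The genes named are all members and, of each list, the 2 brightest genes, the largest rise and the largest fall among those called. Partner subunits and Gzma were named as well. Serpinb9, Klrk1, Cd5, Ctla4, Ccr7, Tbx21, Tnfsf13, and Csf3r were named outside this rule, after their values were seen, as were single values from other members or lists. Members and lists were chosen with earlier results of these data known. Promoter sequences came from RefSeq and were found for 7 of the 9 members, not for Cd4 and Cd79b.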

Additional observations from a re-analysis of the deposited data

How the results depend on the processing

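By the labels of the deposited table the log2 fold changes were 0.53 for Cd3e, 0.34 for Cd8a, 1.08 for Gzmb and 0.50 for Prf1. They were 1.29 for Cd79b, 0.28 for Pigr and 2.76 for Ptprc. By these labels 6 members were called higher and 0 lower, beside 70.1% of all tested probes called, 50.4% of these higher. Without scaling 7 members were higher and 1, Ptprc, lower, relative to a median of 1.93 over all probes: Cd3e was at 1.44, Cd8a at 1.55, Gzmb at 0.66, Prf1 at 1.34, Cd79b at 0.71 and Pigr at 1.17, and 16 cytotoxic and 16 IgA genes were called. With scaling, the other probes of Ptprc gave -0.53 and 0.69. Cd2 was at -0.07 under quantile normalization, -1.53 under normexp and -0.76 under normexp without 8 spots, an alternative chosen after seeing the data because those spots upset the normexp fit of control array 3. Under normexp as planned 1752 probes and 1 member (0 higher, 1 lower) were called, with 1 gene each of the T cell, cytotoxic, pan-leukocyte and myeloid lists and 0 of the B and plasma cell, IgA, enterocyte and smooth muscle lists, and without the 8 spots 25564 probes were called. No member was called higher (0) under quantile normalization, median centring, either normexp, an intensity trend, a fold of at least 1.5 (4 members called, all 4 lower) or the methods' one-way test after Benjamini-Hochberg. The median over all probes was 0.08, against -0.12 under median centring, -0.69 under normexp and -0.42 without the 8 spots. Of the called probes 53.4% were higher, against 49.6% under quantile normalization, 42.8% under median centring, 98.1% without scaling and 31% and 25.8% under normexp with and without the 8 spots.

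With 1 array left out, 5 to 8 members were called, 0 to 1 higher and 5 to 7 lower. In the same fits 68.4% to 72.7% of all tested probes were called. The lowest count was without S3d replicate 2. With the replicate number as a block, 7 members (0 higher) and 22211 probes were called, and Cd2 lost its call. The numbers did not pair the samples, since same-numbered samples deviated together with correlations of 0.02, 0.02 and -0.05. Over all alternatives, the log2 fold changes of single members kept their direction but lost the call 22 times and reversed 17 times. Dim signal limited Cd4 and Cd2.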
